A study of Mus musculus with 9 samples.

Results

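Integrin and laminin genes were examined in mouse colon organoids with and without the aryl hydrocarbon receptor (AHR), a ligand-activated transcription factor. The 35 genes were chosen by name as chains of the integrin and laminin families, 25 integrin and 10 laminin chains, and were found among the 48795 Ensembl genes of the deposited table by their GENCODE symbols. They, the lists of related genes and the markers were chosen with earlier results of these data known. Counts of called genes beside a background share are therefore descriptions and not independent tests. Of the 35 genes, 16 had a mean of 10 or more normalised counts over the 9 libraries and were tested: 10 integrin chains and 6 laminin chains.

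Organoids were grown from colonic crypts of wild-type (WT) mice and of AHR-deficient mice (AHR KO). Per the methods of the study, the deficient mice carried floxed Ahr alleles and a Cre recombinase driven by the Villin promoter, which is active in intestinal epithelium, and organoids came from 3 biological replicates. All organoids were embedded in Matrigel and kept in WENR, a medium with Wnt-3A, EGF, Noggin and R-spondin-1 that holds them in a stem-cell state. WENR also held A83-01, an inhibitor of the TGF-β receptor ALK5, the inhibitor SB202190 and nicotinamide, in all groups alike. They received the solvent DMSO or 5 nM of the AHR ligand FICZ for 4 h. The libraries were numbered 2 and 3 in WT DMSO (n = 2), 1, 2 and 3 in WT FICZ (n = 3), 1 and 3 in AHR KO DMSO (n = 2), and 1 and 3 in AHR KO FICZ (n = 2). Values of a group are given below in that order.

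Laminins are trimers of an α, a β and a γ chain that epithelial cells secrete and assemble into the basement membrane on which they rest. Integrins are receptors made of an α and a β chain that join this matrix to the cytoskeleton: Itga3 and Itga6 chains bind laminin, Itga2 binds collagen, and Itga5 and Itgav bind ligands with an arginine-glycine-aspartate motif such as fibronectin. In hemidesmosomes the Itga6 and Itgb4 chains tie laminin to keratin filaments, and the Itgav receptors that carry Itgb6 or Itgb8 release active TGF-β from its latent complex. Matrigel is itself a laminin-rich extract of a mouse tumour, so the cultured cells met laminin protein whatever their own transcripts.

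Library totals ran from 23177058 to 25033827 normalised counts. Libraries of a group correlated at r = 0.986 to 0.991 over genes (6 pairs), against 0.964 to 0.983 between groups (30 pairs). Ahr, the targeted gene, was not lower in the libraries labelled AHR KO, with 1346 to 1443 normalised counts against 783 to 858 in WT, and its targets Cyp1a1 and Cyp1b1 were higher with FICZ in each genotype, without overlap. Cyp1a1 had 5.84 and 0 normalised counts in WT DMSO, 7797, 6987 and 7958 in WT FICZ, 0 and 2.93 in AHR KO DMSO, and 100.3 and 139 in AHR KO FICZ, and Cyp1b1 had 1632 and 1078 normalised counts in WT DMSO, 10220.3, 10599.6 and 8898 in WT FICZ, 34.5 and 25.4 in AHR KO DMSO, and 137 and 222 in AHR KO FICZ. In the libraries labelled AHR KO the FICZ levels of both were far below those of WT FICZ. A gene total does not show whether the deleted part is present, so the directions below rest on the labels. The 8 epithelial markers summed to 299362 to 326340 in each library. Of 8 fibroblast markers, 6 never reached 3 normalised counts, Lum was at 0 throughout and Col1a1 was at most 4.34, while Pdgfrb had 55.7 to 110.1 in WT and 15.3 to 34.5 in AHR KO. Of 10 leukocyte markers, 5 were at 0 in every library, Ptprc among them, and 3 stayed under 3 normalised counts, while Csf1r had 5.86 to 17.4 and Cd68, a lysosomal protein, 475 to 712. In such bulk samples, fewer cells of a type and less RNA per cell cannot be told apart.

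Promoter sequences are shown for 4 chains on which the results turn: Lamb1, with the largest difference between genotypes, Lama5, higher in AHR KO under both treatments, Itgb6, and Itgb1, the β chain of most laminin and collagen receptors. RefSeq sequence of GRCm38.p6 was available for 12 of the 16 tested genes. Of the 250 bases before each start, those before the first annotated exon are printed 5′ to 3′ on the strand of the gene, with matches in capitals.
Lamb1, chr12:31265043-31265233, plus strand: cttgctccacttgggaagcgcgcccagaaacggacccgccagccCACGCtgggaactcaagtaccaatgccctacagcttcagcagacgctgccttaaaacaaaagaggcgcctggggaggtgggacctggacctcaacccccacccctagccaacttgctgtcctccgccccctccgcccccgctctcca
Lama5, chr2:180225860-180226109, minus strand: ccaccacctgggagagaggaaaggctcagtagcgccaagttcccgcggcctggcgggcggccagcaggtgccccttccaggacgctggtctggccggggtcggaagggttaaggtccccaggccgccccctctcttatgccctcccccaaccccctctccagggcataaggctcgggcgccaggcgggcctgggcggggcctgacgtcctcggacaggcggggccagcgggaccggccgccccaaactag
Itgb6, chr2:60722644-60722853, minus strand: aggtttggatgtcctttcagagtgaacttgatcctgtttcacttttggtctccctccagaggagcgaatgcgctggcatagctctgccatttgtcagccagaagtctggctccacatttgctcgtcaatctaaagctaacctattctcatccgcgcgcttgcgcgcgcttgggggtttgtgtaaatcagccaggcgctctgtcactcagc
Itgb1, chr8:128685404-128685653, plus strand: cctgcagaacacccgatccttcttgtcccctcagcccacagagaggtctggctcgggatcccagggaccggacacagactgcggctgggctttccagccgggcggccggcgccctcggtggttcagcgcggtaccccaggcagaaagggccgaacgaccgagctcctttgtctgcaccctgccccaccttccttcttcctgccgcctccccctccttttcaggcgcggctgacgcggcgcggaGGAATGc
The letters searched on both strands were GCGTG, the core that AHR and its partner ARNT recognise, GGAATG, the core of TEAD factors, and TGANTCA, that of AP-1. GCGTG was found in 28.2% of all 32851 RefSeq windows of 250 bases and in 4 of the 15 windows of the 12 tested genes, 1 each in Itga2, Itgb5, Lamb1 and Lamb3. In Lamb1 it stood on the other strand, as CACGC, 206 bases before the RefSeq start, which lies downstream of the annotated gene start where the printed stretch ends. GGAATG was found in 12.6% of all windows and in 2 of the 15, in Lamb3 and Itgb1, where it stood 7 bases before the start. TGANTCA was found in 6.7% of all windows and in 0 of the 15. The Lama5 and Itgb6 windows held none of the 3. These matches describe letters in a window and not binding.

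The most abundant chain per kb of annotated exon was Itgb1. Levels of different genes were compared as normalised counts per kb of annotated exon, a scale on which Itgb1 reached 3249.6 ± 105 (SD, n = 2) in WT DMSO. Itga6 followed at 2052 ± 102, then Itgb4 at 1427 ± 164 and Itga3 at 909.6 ± 46.8, so the 4 highest chains were those of the laminin-binding receptors. The length was that of all annotated exons joined, 9025 bases for Itga6 and 4081 for Itgb1. Their longest transcripts have 4310 and 3815 bases, so the order of Itgb1 and Itga6 depends on the length used. Itga2, Lamb3, Lamc1 and Itgav lay between 364 and 698 per kb in WT DMSO, and Lamb3 differed from Itga2 above it and Lamc1 below it by less than the sum of their SDs. Lama5, Itgb6, Itgb5 and Lama3 lay between 170 and 225 per kb in WT DMSO and could not be ordered beyond the spread of their libraries. Lamb2 was lower, at 69.6 ± 18.2, and Itga5, Itgb8 and Lamb1 were the rarest tested chains, at 6.88 ± 1.08, 1.56 ± 0.381 and 1.27 ± 0.799 per kb, of which the last pair did not differ beyond their SDs.

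**Figure D1:**
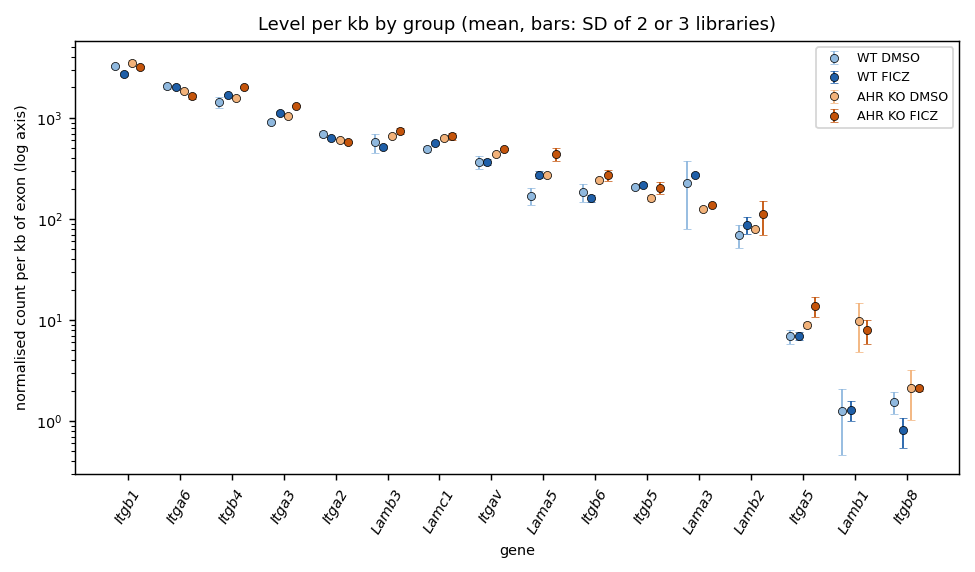
Level of each tested integrin and laminin gene as normalised counts per kb of exon (log axis), as the mean of each of the 4 groups with bars for the SD over 2 or 3 libraries. Genes run from Itgb1 at the left, at 2714 to 3523 per kb, to Itgb8 at the right, at 0.813 to 2.11 per kb.

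The other 19 chains stayed under the filter, with the highest single value at 24.9 normalised counts (Itga10, in AHR KO FICZ replicate 3). Of these, 16 never reached 10 and 9 never exceeded 3. They included the leukocyte chains Itgal, Itgam, Itgax, Itgae, Itgb2 and Itgb7, of which Itgb2 was highest at 8.74. Lama1, Lama2 and Lama4, laminin chains typical of embryonic or stromal basement membranes, had at most 1.102, and Lamc3 was at 0 in every library. Itga1, Itga7 and Itga10 were the remaining chains that reached 10 in any library, Itga1 at up to 14.6 and Itga7 at up to 10.7. Itga1 shares its strand and locus with Pelo, so its low counts are uncertain. Among the tested chains, no gene overlapping on the same strand averaged above 0.704 normalised counts.

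With FICZ present, AHR KO organoids carried more RNA than WT organoids for 11 of the 16 tested chains, led by Lamb1, Itgb8, Itga5, Itgb6 and Lama5, and less for Lama3 and Itga6. Without it, only Lamb1, Lama5 and Lamc1 were called, all higher. The comparison asks what differs between genotypes, first under the solvent and then with the ligand present. Under DMSO, 3 of the 16 tested chains were called (limma, adjusted p under 0.05), against a background of 9.05% of the 12741 genes tested (4.21% higher and 4.83% lower). Under FICZ, 13 of 16 were called against a background of 20.0%: 11 were higher in AHR KO (background 9.48%) and 2 were lower (background 10.5%). The median log2 difference of the tested chains was 0.23 under DMSO and 0.27 under FICZ, against -0.011 and -0.004 over all genes tested. All 16 differed in the same direction under DMSO and under FICZ, 12 higher and 4 lower, as did 73.5% of all genes tested. These comparisons share no library. The counts depended on single libraries. Under FICZ, 3 chains were called without AHR KO FICZ replicate 3, 8 without AHR KO FICZ replicate 1 and 8 without WT FICZ replicate 3. Under DMSO, 0 were called by limma without AHR KO DMSO replicate 3, 1 without AHR KO DMSO replicate 1 and 5 without WT DMSO replicate 2.

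**Figure D2:**
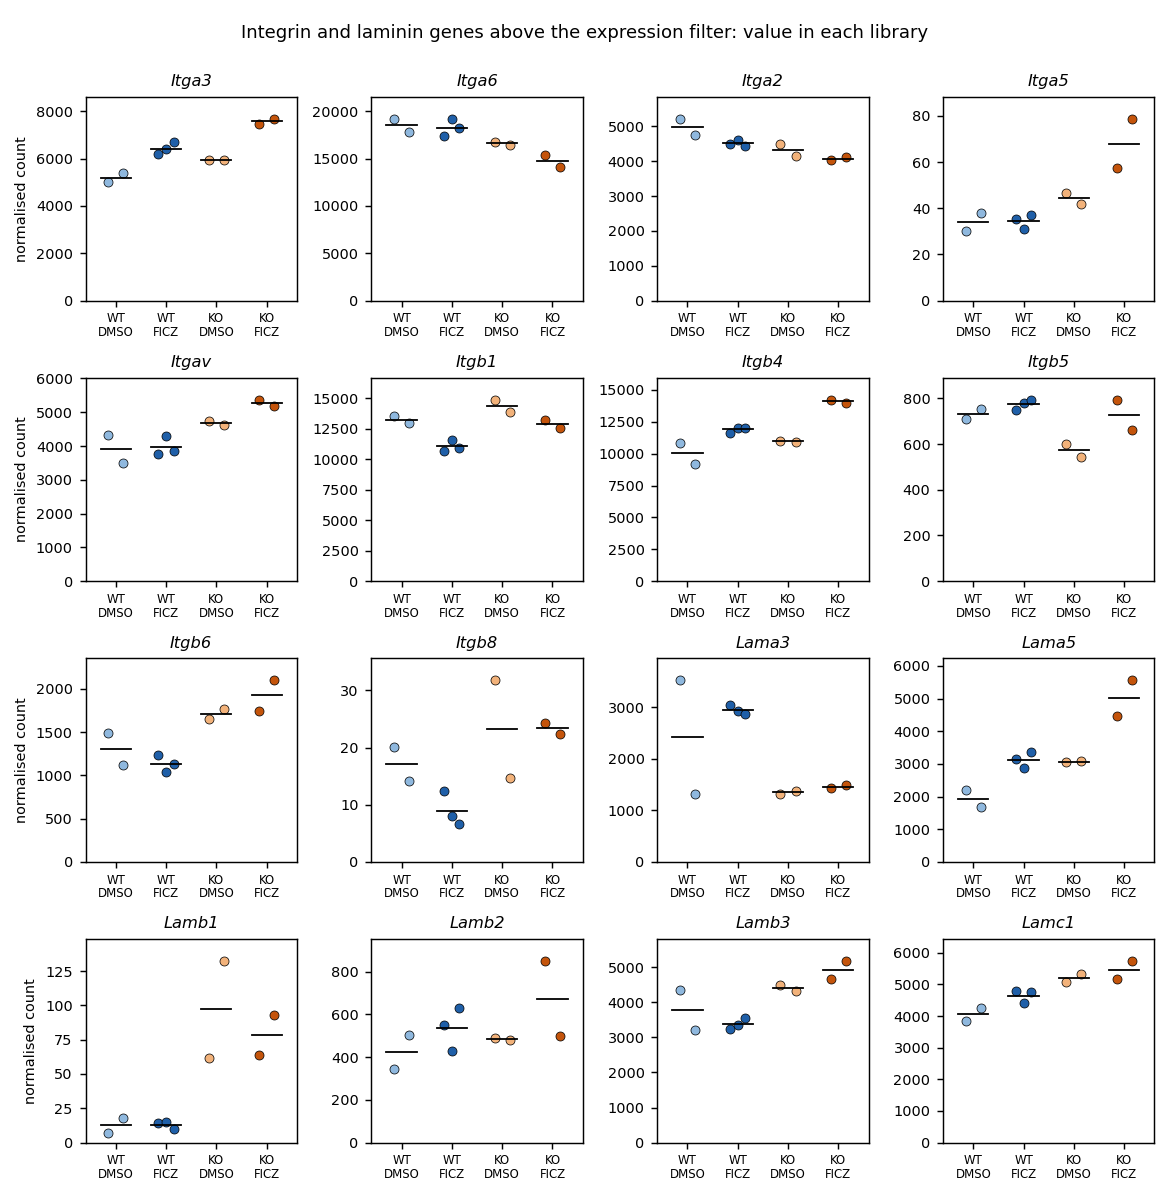
Normalised counts of the 16 tested integrin and laminin genes in each of the 9 libraries (points) with group means (lines), each axis starting at 0. Lamb1 lies at 6.95 to 18.2 in the 5 WT libraries and at 61.9 to 132 in the 4 AHR KO libraries.

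**Figure D3:**
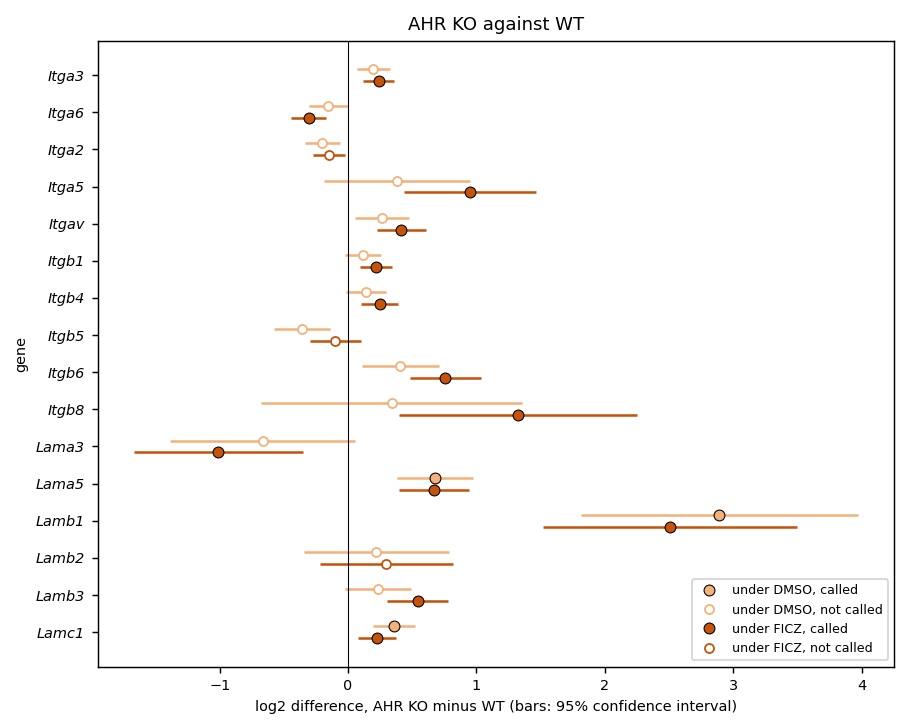
Log2 difference of AHR KO from WT for the 16 tested genes under DMSO (light) and under FICZ (dark), with bars for 95% confidence intervals and filled points where called. Under FICZ 11 genes lie to the right of 0 and are filled, and Itga6 and Lama3 lie to the left of 0 and are filled.

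Laminin β chains differed most between genotypes through Lamb1, the β chain of the main laminin of the intestinal basement membrane. Lamb1 (ENSMUSG00000002900, chromosome 12, 31265234 to 31329644) had 6.95 and 18.2 normalised counts in WT DMSO, 14.3, 14.8 and 9.54 in WT FICZ, 61.9 and 132 in AHR KO DMSO, and 63.7 and 92.7 in AHR KO FICZ. Each AHR KO library was above each WT library. The difference was 7.43-fold under DMSO (log2 difference 2.89, SE 0.486, limma adjusted p = 0.00510) and 5.69-fold under FICZ (log2 difference 2.51, SE 0.443, limma adjusted p = 0.00310). The WT values were low, so the size depended on the pseudocount, and with a pseudocount of 10 the log2 differences were 2.21 and 1.93. Without AHR KO DMSO replicate 3 the DMSO call was lost, at a log2 difference of 2.35, and without WT DMSO replicate 3 the difference was 3.53. The gene lies 4.17 Mb from Ahr on chromosome 12. Per kb, Lamb1 remained a minor β chain, at 0.209% ± 0.157 of the β chain level in WT DMSO and 1.30% ± 0.687 in AHR KO DMSO (SD, n = 2 each). Lamb3, the partner of Lama3 in the laminin of hemidesmosomes, held 88.6% ± 4.73 in WT DMSO and 86.2% ± 4.76 in AHR KO FICZ. Lamb3 (ENSMUSG00000026639, chromosome 1, 193207699 to 193343878) had 4345 and 3224 normalised counts in WT DMSO, 3250.4, 3348 and 3548 in WT FICZ, 4485 and 4329 in AHR KO DMSO, and 4665 and 5182 in AHR KO FICZ. Both AHR KO FICZ libraries were above all WT FICZ libraries, while the DMSO groups overlapped. It was 1.45-fold higher in AHR KO under FICZ (log2 difference 0.54, SE 0.106, limma adjusted p = 0.00525) and was not called under DMSO (log2 difference 0.24, SE 0.116, limma adjusted p = 0.250). Lamb2, a β chain of the vessel and kidney basement membranes, was not called in any comparison, with 345 and 502 normalised counts in WT DMSO and 850.2 and 499 in AHR KO FICZ.

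Of the epithelial α chains, Lama5 was higher in AHR KO under both treatments and Lama3 was lower under FICZ. Lama5 (ENSMUSG00000015647, chromosome 2, 180176373 to 180225859), the α chain of the main laminin under adult epithelium, had 2206 and 1669 normalised counts in WT DMSO, 3162, 2861 and 3361 in WT FICZ, 3045 and 3092 in AHR KO DMSO, and 4452 and 5558 in AHR KO FICZ. AHR KO libraries lay above WT libraries under each treatment, without overlap. The difference was 1.60-fold under DMSO (log2 difference 0.68, SE 0.134, limma adjusted p = 0.0123) and 1.59-fold under FICZ (log2 difference 0.67, SE 0.123, limma adjusted p = 0.00370). Lama3 (ENSMUSG00000024421) had 3523 and 1308 normalised counts in WT DMSO, 3037, 2934 and 2860.4 in WT FICZ, 1324 and 1383 in AHR KO DMSO, and 1438 and 1482 in AHR KO FICZ. WT DMSO replicate 3 stood with the AHR KO libraries, and the other 4 WT libraries were higher than all AHR KO libraries. Lama3 was lower in AHR KO under FICZ (log2 difference -1.01, SE 0.295, limma adjusted p = 0.0365) and was not called under DMSO (log2 difference -0.67, SE 0.323, limma adjusted p = 0.245), where the groups overlapped. Without WT DMSO replicate 3 it was called under DMSO as well, at a log2 difference of -1.38. The FICZ call of Lama3 was lost in 10 of the 19 alternatives, 7 of them without AHR KO DMSO replicate 1, AHR KO DMSO replicate 3, WT FICZ replicate 1, WT FICZ replicate 2, WT FICZ replicate 3, AHR KO FICZ replicate 1 or AHR KO FICZ replicate 3 (log2 difference -1.03 to -0.99), with the difference at -1.03 to -0.82 in all 19. Per kb, Lama5 made up 45.9% ± 12.4 (SD, n = 2) of the laminin α level in WT DMSO, 50.0% ± 2.37 (n = 3) in WT FICZ, 68.1% ± 0.410 (n = 2) in AHR KO DMSO and 76.2% ± 2.46 (n = 2) in AHR KO FICZ.

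Lamc1 (ENSMUSG00000026478, chromosome 1, 153218922 to 153332786), the γ chain shared by most laminins, had 3859 and 4254 normalised counts in WT DMSO, 4778, 4414 and 4759 in WT FICZ, 5067 and 5337 in AHR KO DMSO, and 5164 and 5743 in AHR KO FICZ. AHR KO values exceeded WT values in each treatment without overlap. The log2 difference was 0.36 under DMSO (SE 0.0728, limma adjusted p = 0.0135) and 0.23 under FICZ (SE 0.0665, limma adjusted p = 0.0358). Under DMSO the call of Lamc1 was lost without WT DMSO replicate 2, AHR KO DMSO replicate 1 or AHR KO DMSO replicate 3 (log2 difference 0.29 to 0.40), and that of Lama5 without WT DMSO replicate 3, AHR KO DMSO replicate 1 or AHR KO DMSO replicate 3 (log2 difference 0.48 to 0.69). Under FICZ the call of Lamc1 was lost in 8 of the 19 alternatives, with no filter (0.23), with only the groups compared (0.23) and without AHR KO DMSO replicate 1, AHR KO DMSO replicate 3, WT FICZ replicate 1, WT FICZ replicate 2, WT FICZ replicate 3 or AHR KO FICZ replicate 3 (log2 difference 0.15 to 0.25), and those of Lama5 and Lamb3 only without AHR KO FICZ replicate 3 (log2 difference 0.51 and 0.46).

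Of the laminin-binding integrin chains, Itga3, Itgb1 and Itgb4 were higher and Itga6 was lower in AHR KO under FICZ. Itga3 (ENSMUSG00000001507, chromosome 11, 95044474 to 95076801), a laminin receptor chain of epithelia, had 5005 and 5383 normalised counts in WT DMSO, 6174, 6409 and 6699 in WT FICZ, 5941 and 5948 in AHR KO DMSO, and 7465 and 7677 in AHR KO FICZ. The genotypes did not overlap within either treatment, and AHR KO was 1.18-fold higher under FICZ (log2 difference 0.24, SE 0.0527, limma adjusted p = 0.0105). Itga6 (ENSMUSG00000027111, chromosome 2, 71745616 to 71858416), which pairs with Itgb1 or Itgb4, had 19173 and 17869 normalised counts in WT DMSO, 17395, 19199.7 and 18218 in WT FICZ, 16808 and 16469 in AHR KO DMSO, and 15429.9 and 14149 in AHR KO FICZ. The lowest WT library exceeded the highest AHR KO library, and the log2 difference under FICZ was -0.31 (SE 0.0611, limma adjusted p = 0.00609). Itgb1 (ENSMUSG00000025809, chromosome 8, 128685654 to 128733200) had 13566 and 12957 normalised counts in WT DMSO, 10662, 11622 and 10939 in WT FICZ, 14894 and 13864 in AHR KO DMSO, and 13200.2 and 12576 in AHR KO FICZ. AHR KO FICZ libraries were above all 3 WT FICZ libraries (log2 difference 0.22, SE 0.0567, limma adjusted p = 0.0215). Itgb4 (ENSMUSG00000020758, chromosome 11, 115974709 to 116008412), which anchors keratin filaments at hemidesmosomes, had 10829 and 9199 normalised counts in WT DMSO, 11645, 12034 and 12041 in WT FICZ, 11023 and 10926 in AHR KO DMSO, and 14235 and 14007 in AHR KO FICZ. It was higher in both AHR KO FICZ libraries than in any other (log2 difference 0.25, SE 0.0644, limma adjusted p = 0.0225). None of these 4 chains was called under DMSO, where the log2 differences ran from -0.15 for Itga6 to 0.20 for Itga3. Under FICZ the call of Itgb1 was lost with only the groups compared (0.22) and without WT FICZ replicate 1, WT FICZ replicate 3, AHR KO FICZ replicate 1 or AHR KO FICZ replicate 3 (log2 difference 0.18 to 0.25), that of Itgb4 without WT FICZ replicate 1, WT FICZ replicate 3, AHR KO FICZ replicate 1 or AHR KO FICZ replicate 3 (log2 difference 0.23 to 0.26), and those of Itga3 and Itga6 only without AHR KO FICZ replicate 3 (log2 difference 0.22 and -0.24). The share of Itga6 in the integrin α level per kb was 50.9% ± 0.586 (SD, n = 2) in WT DMSO against 46.8% ± 0.108 (n = 2) in AHR KO DMSO, and 48.6% ± 0.694 (n = 3) in WT FICZ against 40.5% ± 1.76 (n = 2) in AHR KO FICZ. That of Itga3 was 22.6% ± 2.02 against 26.4% ± 0.462 with DMSO and 27.05% ± 0.989 against 32.8% ± 1.24 with FICZ.

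Of the Itgav receptor chains, Itgav, Itgb6 and Itgb8 were higher in AHR KO under FICZ and Itgb5 was not called. Itgav (ENSMUSG00000027087, chromosome 2, 83724397 to 83806916) had 4325 and 3499.5 normalised counts in WT DMSO, 3764, 4291 and 3861 in WT FICZ, 4733 and 4619 in AHR KO DMSO, and 5373 and 5191 in AHR KO FICZ. AHR KO libraries all lay above the WT libraries, and the FICZ difference was called (log2 difference 0.41, SE 0.0860, limma adjusted p = 0.00743) while that under DMSO was not (log2 difference 0.27, SE 0.0943, limma adjusted p = 0.116). Itgb6 (ENSMUSG00000026971, chromosome 2, 60598292 to 60722643), an epithelial chain that is raised in wounded epithelium and activates latent TGF-β, had 1485 and 1120.3 normalised counts in WT DMSO, 1236, 1039 and 1129.5 in WT FICZ, 1653 and 1767 in AHR KO DMSO, and 1748 and 2099 in AHR KO FICZ. All 4 AHR KO libraries were above all 5 WT libraries. AHR KO was 1.69-fold higher under FICZ (log2 difference 0.76, SE 0.123, limma adjusted p = 0.00182), and under DMSO the difference was 0.41 and not called (limma adjusted p = 0.0937). Itgb8 (ENSMUSG00000025321, chromosome 12, 119158022 to 119238802), which also activates latent TGF-β, was rare, with 20.2 and 14.2 normalised counts in WT DMSO, 12.3, 8.04 and 6.61 in WT FICZ, 31.8 and 14.7 in AHR KO DMSO, and 24.4 and 22.3 in AHR KO FICZ. The FICZ groups did not overlap and the call lay just under the threshold (log2 difference 1.33, SE 0.417, limma adjusted p = 0.0494), whereas the DMSO groups overlapped. The call was lost in 12 of the 19 alternatives, 6 of them without WT DMSO replicate 2, WT DMSO replicate 3, WT FICZ replicate 2, WT FICZ replicate 3, AHR KO FICZ replicate 1 or AHR KO FICZ replicate 3 (log2 difference 1.15 to 1.39). The others were a pseudocount of 10 (log2 difference 0.82) or 0.1, no filter, quantile normalization, only the groups compared and the replicate block. The call of Itgav was lost only without AHR KO FICZ replicate 1 (log2 difference 0.39). Itgb5 (ENSMUSG00000022817, chromosome 16, 33829665 to 33949338), a vitronectin receptor chain, had 710.5 and 754 normalised counts in WT DMSO, 747, 781 and 794 in WT FICZ, 601 and 544 in AHR KO DMSO, and 791 and 659.8 in AHR KO FICZ. Its AHR KO DMSO values were the lowest, but the difference from WT DMSO just missed the threshold (log2 difference -0.36, SE 0.0981, limma adjusted p = 0.0501), and the FICZ groups overlapped.

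Of the other partners of Itgb1, Itga5 was higher in AHR KO under FICZ and Itga2 was not called. Itga5 (ENSMUSG00000000555, chromosome 15, 103344286 to 103366763), the fibronectin receptor chain, had 30.2 and 37.7 normalised counts in WT DMSO, 35.2, 30.9 and 37.1 in WT FICZ, 46.6 and 42.0 in AHR KO DMSO, and 57.2 and 78.7 in AHR KO FICZ. AHR KO was 1.93-fold higher under FICZ (log2 difference 0.95, SE 0.232, limma adjusted p = 0.0170), with no overlap, and the DMSO difference was not called (log2 difference 0.38, SE 0.254, limma adjusted p = 0.408). Itga2, the collagen receptor chain, had 5213 and 4752 normalised counts in WT DMSO and 4492 and 4163 in AHR KO DMSO, lower without overlap but not called under DMSO (log2 difference -0.20, SE 0.0613, limma adjusted p = 0.0700) or under FICZ (log2 difference -0.15, SE 0.0560, limma adjusted p = 0.0946). The FICZ call of Itga5 was lost with no filter (0.95) and without AHR KO FICZ replicate 3 (log2 difference 0.72). Of all calls between genotypes, only those of Itgb6 and Lamb1 under FICZ were kept in all 19 alternatives. Marker genes also differed with genotype. Of 8 epithelial markers, Epcam, Cdx2 and Krt20, a marker of mature colonocytes, were lower in AHR KO under DMSO (log2 differences -0.43, -0.43 and -0.72) and under FICZ (-0.46, -1.08 and -0.95), and Krt18 was higher under FICZ (0.38). The other 4 were not called. The 8 fibroblast markers summed to 57.5 to 111 normalised counts in WT and 19.4 to 39.1 in AHR KO. Most of each sum was Pdgfrb, at 55.7 to 110.1 in WT and 15.3 to 34.5 in AHR KO, and no other of the 8 markers exceeded 4.34. Pdgfrb, the only 1 of them that was tested, was lower in AHR KO under DMSO (log2 difference -1.60, SE 0.333, limma adjusted p = 0.0155) and under FICZ (log2 difference -1.55, SE 0.304, limma adjusted p = 0.00533), and the DMSO call was lost with the replicate block (-1.48) and without WT DMSO replicate 2 or AHR KO DMSO replicate 1 (log2 difference -1.31 to -1.10). The part of either in the chain differences was not tested.

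Whether the genotypes differ more with the ligand than without it was tested as an interaction, which is the same quantity as the difference between the FICZ responses. By limma, 0 of the 16 chains had an adjusted p under 0.05, against a background of 0.447% of genes called. An unadjusted p under 0.05 was found for 0 of the 16 chains, against 952 of the 12741 genes tested. The 13 calls under FICZ and 3 under DMSO do not show that any chain responded differently between genotypes. For Lama5 the response of WT exceeded that of AHR KO by 0.01 on the log2 scale (95% interval -0.40 to 0.41), with -0.04 for Itga3 (-0.22 to 0.13) and -0.11 for Itgb4 (-0.32 to 0.10). Lamb3, Itgb5 and Itgb6 had the smallest unadjusted p-values, 0.0798, 0.0813 and 0.0814 in the limma fit, with differences of -0.31, -0.26 and -0.35. Without WT DMSO replicate 2, Lama3 was called at 1.06, which then rested on WT DMSO replicate 3 alone for that group.

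FICZ changed 5 of 16 tested chains in WT and 4 of 16 in AHR KO, with Lama5, Itga3 and Itgb4 called in both. By limma 0 of 16 were called in either genotype once a trend on GC content and transcript length was removed from each library (3 in each at an unadjusted p under 0.05). The backgrounds were high, at 30.8% of genes in WT and 19.7% in AHR KO, and the counts were near those shares. In WT, Itga3, Itgb4, Lama5 and Lamc1 rose (background 15.1% higher) and Itgb1 fell (15.7% lower). In AHR KO, Itga3, Itgb4, Itgb5 and Lama5 rose and none fell (10.2% higher and 9.48% lower). With 1 library left out, 2 to 4 chains were called higher and 0 to 3 lower in WT. Lama3 was called there without WT DMSO replicate 2 (log2 difference 1.17), and Lama3 and Lamb3 were called lower without WT DMSO replicate 3 (-0.26 and -0.36). In AHR KO 1 to 4 were called higher, and only Itga3 without AHR KO DMSO replicate 1. The median log2 difference of the tested chains was 0.05 in WT and 0.16 in AHR KO, beside -0.01 for all genes in each. The change had the same direction in both genotypes for 12 of 16 chains, as for 77.8% of all genes tested, and the comparisons share no library.

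Lama5 showed the largest FICZ change among the called chains. It rose 1.63-fold in WT (log2 difference 0.70, SE 0.123, limma adjusted p = 0.00247) and 1.62-fold in AHR KO (log2 difference 0.70, SE 0.134, limma adjusted p = 0.00784), and in each genotype the highest DMSO value was below the lowest FICZ value. Itga3 rose 1.24-fold in WT (log2 difference 0.31, SE 0.0527, limma adjusted p = 0.00220) and 1.27-fold in AHR KO (log2 difference 0.35, SE 0.0577, limma adjusted p = 0.00423). Itgb4 rose 1.19-fold in WT (log2 difference 0.25, SE 0.0644, limma adjusted p = 0.0145) and 1.29-fold in AHR KO (log2 difference 0.36, SE 0.0705, limma adjusted p = 0.00801). Itgb1 fell in WT (log2 difference -0.26, SE 0.0567, limma adjusted p = 0.00707) and its change in AHR KO was not called (log2 difference -0.16, SE 0.0621, limma adjusted p = 0.102), and this pair of changes was not shown to differ by the interaction (limma adjusted p = 0.877). On the level per kb, the share of Itgb1 among integrin β chains was 64.1% ± 1.67 (SD, n = 2) in WT DMSO and 56.6% ± 0.973 (n = 3) in WT FICZ, and that of Itgb4 was 28.1% ± 1.60 and 35.4% ± 0.581. In AHR KO the share of Itgb1 was 64.1% ± 1.02 with DMSO and 55.9% ± 0.697 with FICZ (n = 2 each). These shares rest on the values as deposited. With a trend on GC content and transcript length removed, the FICZ difference of Lama5 was 0.24 in WT and 0.27 in AHR KO, that of Itga3 0.04 and 0.06, that of Itgb4 -0.13 and -0.022, with its sign turned in each genotype, and that of Itgb1 -0.13 in WT, none of them called.

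Lamc1 in WT (log2 difference 0.20, SE 0.0665, limma adjusted p = 0.0462) and Itgb5 in AHR KO (log2 difference 0.34, SE 0.0981, limma adjusted p = 0.0377) were the weaker calls. Lamc1 lost its call in WT in 9 of the 19 alternatives, with no filter (0.20), with only the groups compared (0.20), with the GC and length trend removed (0.06) and without WT DMSO replicate 2, WT DMSO replicate 3, AHR KO DMSO replicate 1, AHR KO DMSO replicate 3, WT FICZ replicate 1 or WT FICZ replicate 3 (log2 difference 0.13 to 0.27). Itgb5 lost its call in AHR KO in 10 of the 19, with no filter (0.34), with only the groups compared (0.34), with the replicate block (0.34), with the GC and length trend removed (0.09) and without WT DMSO replicate 2, WT DMSO replicate 3, AHR KO DMSO replicate 1, AHR KO DMSO replicate 3, WT FICZ replicate 3 or AHR KO FICZ replicate 1 (log2 difference 0.21 to 0.41). Of the stronger calls, all lost with the GC and length trend removed, Itgb1 in WT was lost without WT DMSO replicate 2 (log2 difference -0.23), Itgb4 in WT without WT DMSO replicate 3 (log2 difference 0.14) and in AHR KO without AHR KO DMSO replicate 1 (log2 difference 0.37), and Lama5 in AHR KO without AHR KO DMSO replicate 1 or AHR KO FICZ replicate 3 (log2 difference 0.54 to 0.69). Lama3 was not called in WT (log2 difference 0.46, SE 0.295, limma adjusted p = 0.273): its change was 1.17 without WT DMSO replicate 2 and -0.26 without WT DMSO replicate 3, so the direction depended on which of the 2 controls was kept. Lamb1, with the largest genotype difference, had a FICZ change of 0.15 in WT (95% interval -0.84 to 1.14) and -0.24 in AHR KO (-1.32 to 0.85).

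The chains that rose with FICZ in both genotypes have GC-rich transcripts, as do others that were not called in both. Itgb4 and Lama5 were at the 96.2 and 96.0 percentiles of GC content among the genes tested, and Itga3 at 90.8, whereas Itgb1, which fell in WT, was at 25.8. Lamb2, Itga5 and Itgb5, at 93.7, 88.9 and 87.6, were not called with FICZ in WT (log2 differences 0.35, 0.02 and 0.08), and of these Itgb5 was called in AHR KO. With the smooth trend on GC content and transcript length removed, the 0 chains called with FICZ stood against backgrounds of 18.2% of genes in WT and 5.45% in AHR KO. With the same removal, the 3 chains called between genotypes under DMSO and the 13 called under FICZ were all called again, and Itga2 was called lower besides under each treatment, which made 4 calls against a background of 9.74% and 14 against 21.5%. The FICZ changes of Lama5, Itga3 and Itgb4 were therefore smaller or turned after the removal, while the genotype calls were not fewer.

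**Figure D4:**
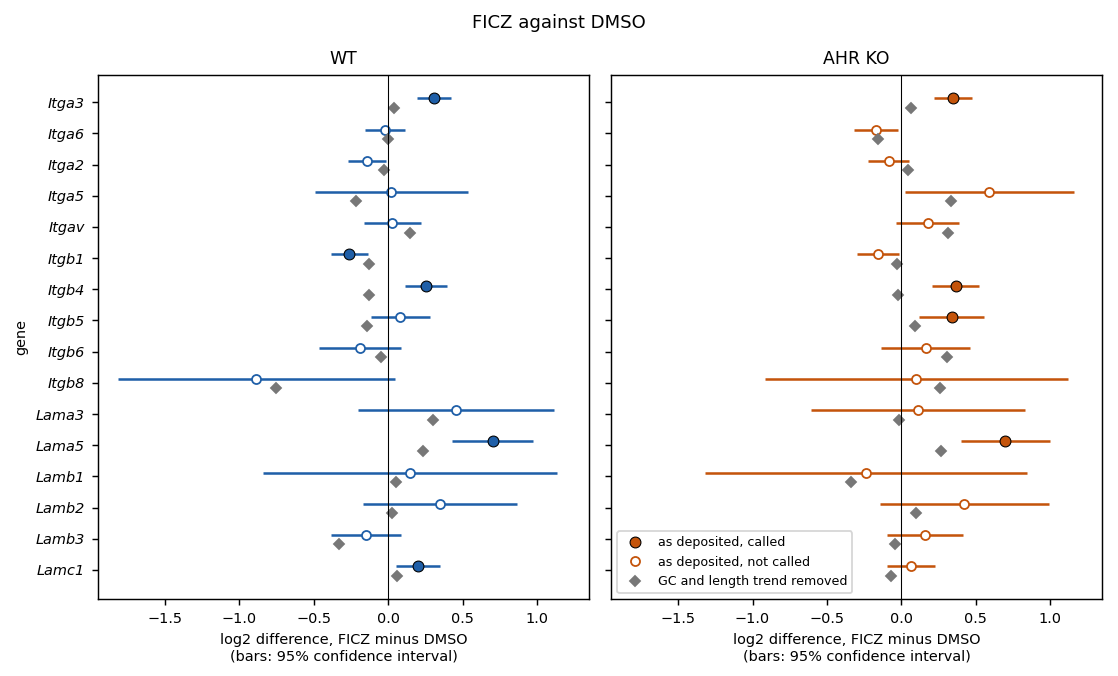
Log2 difference of FICZ from DMSO for the 16 tested genes in WT (left) and AHR KO (right), with bars for 95% confidence intervals and filled points where called. Grey diamonds give the difference after a trend on GC content and transcript length was removed, where none was called, and those of Itgb4 lie left of 0.

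Among partners of laminins in the basement membrane, Col4a5, Nid1 and Col18a1 were higher in AHR KO under both treatments. Of 16 listed partners, 10 were tested, and 6 were higher in AHR KO under DMSO and 6 under FICZ, with 0 and 2 lower, against 4.21% of all genes higher and 4.83% lower under DMSO, and 9.48% and 10.5% under FICZ. Their median log2 difference was 0.81 under DMSO and 0.84 under FICZ, and with 1 library left out 4 to 6 and 6 to 8 were called. Nid1, nidogen, which joins laminin to collagen IV, had 285 and 253 normalised counts in WT DMSO, 250.03, 313 and 344 in WT FICZ, 685 and 727 in AHR KO DMSO, and 638 and 745 in AHR KO FICZ. All AHR KO values were above all WT values (log2 difference 1.39, SE 0.147, limma adjusted p = 0.000447 under DMSO, and log2 difference 1.199, SE 0.135, limma adjusted p = 0.000175 under FICZ). Col4a5, a collagen IV chain, was 7.20-fold and 6.75-fold higher under DMSO and FICZ, from 4.52 to 13.1 normalised counts in WT and 52.6 to 78.5 in AHR KO. The WT values of Col4a5 were low, so the size of its folds depended on the pseudocount. Its means of 9.24 in WT DMSO and 8.92 in WT FICZ were under the filter of 10. It was thus tested only through its AHR KO libraries, and its place among the 6 higher is no independent support. Col18a1 was 2.19-fold and 2.13-fold higher, the laminin-related netrin Ntn4 2.35-fold higher under DMSO, and the integrin ligand nephronectin, Npnt, 2.74-fold higher under FICZ. The 2 lower under FICZ were Col4a1 (-0.61) and Col4a2 (-0.65), the most common collagen IV chains, which are named here after their values were seen.

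**Figure D5:**
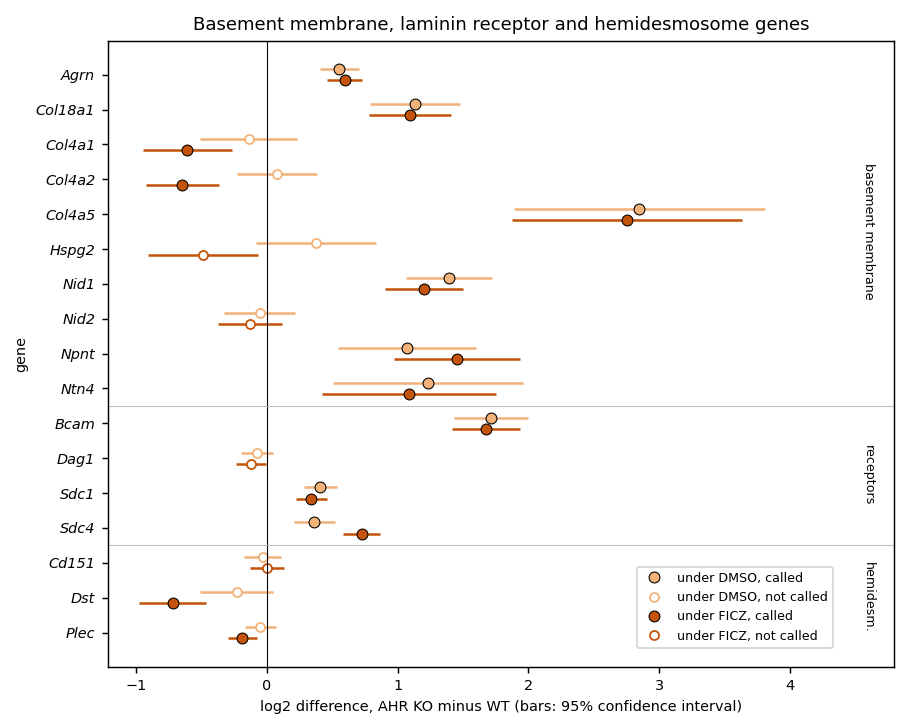
Log2 difference of AHR KO from WT under DMSO (light) and FICZ (dark) for the tested basement membrane partners, other laminin receptors and hemidesmosome genes, with bars for 95% confidence intervals and filled points where called. Col4a5 lies farthest to the right, at 2.85 and 2.76, and Bcam, Nid1 and Col18a1 are among those above 1 in both.

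All 4 listed laminin receptors other than integrins were tested, and 3 were higher in AHR KO under each treatment (background 4.21% under DMSO and 9.48% under FICZ), with a median log2 difference of 0.39 and 0.53. Bcam, a receptor for the Lama5 chain, had 356 and 329 normalised counts in WT DMSO, 387, 428 and 381 in WT FICZ, 1024 and 1233 in AHR KO DMSO, and 1132 and 1433 in AHR KO FICZ, 3.28-fold higher under DMSO (log2 difference 1.71, SE 0.128, limma adjusted p = 6.77e-05) and 3.20-fold higher under FICZ (log2 difference 1.68, SE 0.117, limma adjusted p = 1.09e-05). All its AHR KO values were above all its WT values. The syndecans Sdc1 and Sdc4 were higher by log2 differences of 0.41 and 0.36 under DMSO and of 0.34 and 0.73 under FICZ. Of the hemidesmosome genes besides Itga6 and Itgb4, 3 of 4 were tested. By limma 0 were called under DMSO, against a background of 9.05%, and 0 had an unadjusted p under 0.05, against 3038 of 12741 genes. Under FICZ, against a background of 10.5% lower, Dst (-0.72) and Plec (-0.19), plakins that bind Itgb4 to keratin, were lower in AHR KO while Itgb4 itself was higher. With a trend on GC content and length removed, Dst was called at -0.66 and Plec, at -0.14, was not. Without WT FICZ replicate 1, WT FICZ replicate 3 or either AHR KO FICZ library, 1 of the 3 was called.

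Among 13 genes for ligands of Itgav and related receptors and for latent TGF-β, 8 were tested and 4 were higher in AHR KO under each treatment (background 4.21% under DMSO and 9.48% under FICZ, median log2 difference 0.86 and 0.94). Tgfb3, a TGF-β ligand whose latent form these receptors activate, had 1.95 and 4.71 normalised counts in WT DMSO, 2.20, 3.09 and 1.001 in WT FICZ, 48.9 and 49.8 in AHR KO DMSO, and 40.1 and 45.2 in AHR KO FICZ. The WT values were near the low end of the table, so the fitted differences (3.62 under DMSO and 3.88 under FICZ) depended on the pseudocount and were 2.16 and 2.12 with a pseudocount of 10. Tgfb3 passed the filter only through its AHR KO libraries, so its place among the 4 higher is no independent support. Ltbp3, a carrier of latent TGF-β, was 2.17-fold and 2.31-fold higher. Ccn1 and Ccn2, matrix proteins that bind Itgav receptors, were higher by log2 differences of 0.60 and 1.18 under DMSO and of 1.41 and 2.51 under FICZ.

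Of 30 listed intracellular adaptors of integrins, 25 were tested, and 1 was called between genotypes under DMSO and 7 under FICZ, 3 higher and 4 lower in AHR KO, near the shares of 9.05% and 20.0% over all genes (median log2 difference 0.02 and 0.10). The called gene under DMSO was Actn1, an α-actinin (log2 difference 0.38, SE 0.0687, limma adjusted p = 0.00725). Those with the largest difference under FICZ were Flna (0.66), Tns4 (-0.53), Actn1 (0.52) and Tns3 (0.33). With FICZ in WT, 7 adaptors rose and 3 fell (background 30.8%), among them Pxn (0.51), Tns4 (0.43) and Sharpin (0.42). With FICZ in AHR KO, 7 rose and 1 fell (background 19.7%), led by Zyx (0.48), Cib1 (0.40), Tln1 (-0.36) and Pxn (0.35). After the trend on GC content and length was removed, 5 adaptors were higher and 2 lower in WT (background 18.2%), and in AHR KO 0 were higher and 1 was lower (background 5.45%). The counts also depended on single libraries, with 0 adaptors called by limma in AHR KO without AHR KO DMSO replicate 1, 2 without AHR KO DMSO replicate 3 or AHR KO FICZ replicate 3, and 5 called in WT without WT DMSO replicate 2. Between genotypes, Actn1 under DMSO was lost without WT DMSO replicate 3, AHR KO DMSO replicate 1 or AHR KO DMSO replicate 3 (log2 difference 0.28 to 0.40), and under FICZ 4 adaptors were called without AHR KO FICZ replicate 1.

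With FICZ in WT, Hspg2, the proteoglycan perlecan, rose 2.95-fold from 207 and 146 to 588, 493 and 472 normalised counts (log2 difference 1.56, SE 0.188, limma adjusted p = 0.000432), Col4a2 and Col4a1 rose (log2 differences 0.78 and 0.47) and Npnt fell (-0.84). In total 4 of the 10 tested basement membrane partners rose and 1 fell, against 30.8% of all genes called, and 2 were called without WT DMSO replicate 2. In AHR KO 2 of the 10 rose, a share near the background of 19.7%, Hspg2 (0.69) and the proteoglycan Agrn (0.34), and by limma 0 were called without AHR KO DMSO replicate 1 or AHR KO FICZ replicate 3. The hemidesmosome genes Plec, Dst and Cd151 rose in WT, by 0.70, 0.59 and 0.41, and Plec and Cd151 rose in AHR KO, by 0.57 and 0.45, on the log2 scale. With the trend on GC content and length removed, Plec was at 0.10 in WT and 0.03 in AHR KO and Dst at 0.30 in WT, none of them called, and Cd151 was called at 0.29 and 0.32. Of the other laminin receptors, Sdc1 and Dag1 rose in each genotype and Sdc4 fell in WT (-0.37), and in AHR KO 0 of the 4 were called by limma without either AHR KO DMSO library or without AHR KO FICZ replicate 3. With the GC and length trend removed, Hspg2 was called in WT at 0.996 and Npnt at -0.86, while Col4a2 at 0.37 and Col4a1 at 0.18 were not called, nor were Hspg2 at 0.19 and Agrn at 0.08 in AHR KO. That made 2 of the 10 basement membrane partners called in WT, near the background of 18.2%, and by limma 0 of 10 in AHR KO (background 5.45%, 1 at an unadjusted p under 0.05). Of the 4 other laminin receptors, 2 were called in WT, Sdc4 (-0.36) and Sdc1 (0.18), and by limma 0 in AHR KO, against the same backgrounds (3 and 0 at an unadjusted p under 0.05).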

How the data were processed

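RNA-seq was carried out by the authors on 9 libraries, stranded and depleted of ribosomal RNA. The authors deposited normalised counts per Ensembl gene, a signal with decimals and no negative values. The submitters' processing notes name STAR 2.5.2a, RSEM 1.2.31, DESeq2 1.16.1 and GRCm38, and the scaling is not given in the sources used here. The methods of the study name summarizeOverlaps, and not RSEM, as the source of raw gene counts. Whole reads could not be recovered, so no count model was applied and the depth in reads is unknown. Identifiers were matched to GENCODE M21 (48435 of 48795, 99.3%), which also gave exon lengths and GC content.

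Values were transformed as log2(value + 1), which understates changes of low genes, and the 12741 genes with a mean of 10 or more were fitted with lmFit and eBayes with trend of limma 3.58.1 (R 4.3.3) on all 9 libraries, with the 4 groups as coefficients and no replicate block. The 5 contrasts were tested two-sided with Benjamini-Hochberg adjustment over all genes tested, and an adjusted p under 0.05 was a call. Folds are 2 to the power of the log2 difference. The fit was tested on simulated data. The integrin and laminin genes, the companion lists and the markers were chosen with earlier results of these data known. Members called in any comparison are given with their value in every library. Companion genes are named up to 4 per list and comparison, by the size of the log2 difference, except Col4a1 and Col4a2 under FICZ, named after their values were seen, and 1 of them is not reported here.

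Alternatives were a pseudocount of 0.1 or 10, no filter, TMM scaling, written out from the published algorithm because the values are not raw counts, quantile normalization, only the groups compared, robust eBayes, the replicate number as a block, the organoid line as a random effect, leaving out each library in turn, and removal of a spline (4 degrees of freedom) on GC content and transcript length, known for 99.7% of genes. The labels do not say which libraries share a mouse, and p-values measure the spread between these libraries. Promoter sequences are from RefSeq.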

Additional observations from a re-analysis of the deposited data

Results flagged for a closer look

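The test of the interaction singled out 2 of the 8 tested ligands of integrins and genes of latent TGF-β, Ccn1 and Ccn2, against 0.447% of all genes. Neither is an integrin or laminin chain. The FICZ change of Ccn1 was lower in WT than in AHR KO by 0.81 on the log2 scale (interaction -0.81, SE 0.127, limma adjusted p = 0.0222, adjusted p 0.0178 to 0.159 over the alternatives). The call of Ccn1 was lost with the replicate block (-0.81) and without WT DMSO replicate 2, AHR KO DMSO replicate 1, AHR KO DMSO replicate 3, WT FICZ replicate 3 or AHR KO FICZ replicate 3 (log2 difference -0.86 to -0.72). It had 999.8 and 891 normalised counts in WT DMSO, 609, 591 and 541 in WT FICZ, 1476 and 1384 in AHR KO DMSO, and 1443 and 1649 in AHR KO FICZ. For Ccn2 the interaction was -1.33 (SE 0.118, limma adjusted p = 0.000575, 0.000381 to 0.00852 over the alternatives), with 2467 and 2370.1 normalised counts in WT DMSO, 1109, 1174 and 992 in WT FICZ, 5616 and 5338 in AHR KO DMSO, and 5792 and 6618 in AHR KO FICZ. All 3 WT FICZ values of each gene were below both WT DMSO values, while neither AHR KO FICZ value was below both AHR KO DMSO values.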

How the results depend on the processing

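Groups held 2 or 3 libraries, so leaving out 1 often left a lone library that was assumed to vary like the rest. Over these fits, genes called ran from 1990 to 4133 for FICZ in WT, 420 to 2961 for FICZ in AHR KO, 23 to 78 for the interaction, 389 to 1465 for AHR KO against WT under DMSO and 1312 to 3084 under FICZ. Integrin and laminin chains called higher ran from 2 to 4, 1 to 4, 0 to 1, 0 to 5 and 3 to 10 in the same order, and chains called lower from 0 to 3, 0 to 0, 0 to 0, 0 to 1 and 0 to 2.

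Removal of the trend on GC content and transcript length left 2309 genes called for FICZ in WT and 692 for FICZ in AHR KO (3928 and 2509 as reported), with 0 chains higher and 0 lower in WT and 0 higher in AHR KO. It turned the FICZ difference of Itgb4 to -0.13 in WT and -0.022 in AHR KO (limma adjusted p = 0.280 and 0.921, with 0.00293 to 0.280 and 0.00507 to 0.921 over all alternatives). The FICZ difference of Lama3 in WT was 1.17 without WT DMSO replicate 2 and turned to -0.26 without WT DMSO replicate 3 (limma adjusted p = 0.0352, 7.07e-05 to 0.527 over all alternatives). For AHR KO against WT under DMSO, 1 chain was called lower when only the groups compared were fitted, with robust eBayes or with the organoid line as a random effect (Itgb5 each time), and 1 with the GC and length trend removed (Itga2). Under FICZ 1 chain rather than 2 was lower with no filter, robust eBayes or the replicate block. With no filter 1 chain, Itga4, was lower with FICZ in AHR KO. The cause was not tested. With a pseudocount of 10 the DMSO difference of Lamb1 was 2.21. TMM, quantile normalization and both pseudocounts turned no called chain.

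Libraries with the same replicate number deviated together little (correlations 0.035 to 0.05 in 4 pairs), so the numbers were not taken to pair them. With the replicate block, genes called were 3412, 2237, 39, 1052 and 2460 in the order above, and chains called higher were 4, 3, 0, 4 and 10.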
